A study of Homo sapiens with 6 samples.

Results

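The data were FPKM values (fragment counts scaled by transcript length and by library size) from 6 RNA-seq libraries with the label A549, a cell line from a human lung adenocarcinoma, grown in RPMI medium with serum: 3 from cells transfected with SF3B4 siRNA and 3 from cells transfected with a scramble control siRNA, labelled NC siRNA and wild type. No source used here gives the siRNA sequence, its dose or how long after transfection RNA was taken. The titles call the replicates biological but give no culture or day. P-values therefore measure the spread among these 6 samples alone. SF3B4 is a subunit of the U2 snRNP complex SF3b, which contacts the intron branch point during splicing. The genes described are the numbered zinc finger genes, that is, protein-coding genes whose symbol is ZNF followed by a number and whose FPKM reached 1 in 3 or more libraries of the 6. There were 113 such genes among 517 protein-coding ZNF genes listed, in tables of 50868 genes. They were selected on their FPKM level, so their being expressed is not a finding. Of the 113 genes, 32 lay in ZNF gene clusters on chromosome 19, 5 on chromosome 19 outside the clusters and 76 on other chromosomes. A cluster was a run of at least 5 annotated protein-coding ZNF genes with no gap over 500 kb.

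Most ZNF proteins carry tandem C2H2 zinc fingers, small folds in which a pair of cysteines and a pair of histidines hold a zinc ion, and neighbouring fingers each contact a few bases of DNA. Many also carry a KRAB domain, which recruits the corepressor TRIM28 and through it the histone methyltransferase SETDB1, so that bound sites are packed into silent chromatin. KRAB zinc finger genes arose by repeated tandem duplication, and in human the largest clusters of them are on chromosome 19. Others among the numbered genes have no KRAB domain and act as activators, as RNA-binding or ribosome-associated proteins, or, like ZNF185, as proteins with no C2H2 finger at all.

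Neighbouring fingers are joined by a short stretch of conserved sequence. Its codons are shown because this joint is common to members inside and outside the chromosome 19 clusters. The pattern searched was histidine, threonine, glycine, glutamate or glutamine, lysine or arginine, proline and then tyrosine or phenylalanine, which 69 of the 112 members with an annotated protein matched at least once. Another 8 of these were not used here, 5 of them because the joint crosses an exon boundary. The first joint was taken from the remaining 61 members, 20 of them in chromosome 19 clusters, and these gave 54 distinct sequences of 21 bases. Below, the most common base at each position is followed by the joints of members that recur in the results, 5′ to 3′ on the coding strand, from GENCODE 29 transcripts (GRCh38). Capitals mark bases that differ from the base printed in that first line. In it, g and t were equally common at the base after cacac, and a and c at the base after cacacggg. The base printed at these ties is arbitrary, so a capital there can mark a base just as common.

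Most common base at each position: cacacgggagagaagccctac
ZNF71, chr19:56621741-56621761 (+): cacacgggagaAaagccGtTT
ZNF837, chr19:58368436-58368456 (-): cacacgggCgagCGgccctac
ZNF146, chr19:36236720-36236740 (+): cacacTggagaAaaAccTtTT
ZNF134, chr19:57620795-57620815 (+): caTacTggagaAaGgccTtaT
ZNF787, chr19:56088806-56088826 (-): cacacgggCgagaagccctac
ZNF467, chr7:149765770-149765790 (-): cacacgggCgagCGgccctac
ZNF133, chr20:18316145-18316165 (+): cacacTggGgagaagccGtaT
ZNF282, chr7:149224417-149224437 (+): cacacgggCgagCGgccTtTc

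Across the 61 sequences, 10 of the 21 bases were the same in every gene, and the median sequence differed from the bases printed as most common at 3 positions, with at most 7. These differences depend in part on which base was printed at the ties. The joint of ZNF837 on chromosome 19 was identical to that of ZNF467 on chromosome 7.

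The libraries were checked first. For SF3B4 the values were 22.0, 17.7 and 22.3 FPKM in the SF3B4 siRNA libraries, against 88.6, 92.0 and 93.8 FPKM in the control libraries, and its log2 fold change was -2.15 ± 0.10 (SE, adjusted p = 8.8e-05) by limma. In SF3B4 siRNA replicate 2 the genotype label names SF3B5, and in replicate 3 it names SF3B6, whereas the titles and treatment labels of both name SF3B4 and were followed. All 6 markers of lung epithelium and carcinoma, EPCAM and CDH1 among them, were above 5 FPKM in every library. Of 8 genes typical of A549, 4 (AKR1C1, AKR1C2, ALDH1A1 and ALDH3A1) were below 0.2 FPKM in every library, and NQO1 was the only one above 5 FPKM. The tables were also deposited under the name of another lung cancer line. The label A549 is therefore kept here only as a label, and which line was sequenced is not settled by these data. Among 6 markers of other cell types, PTPRC was listed at 0 throughout, and CD68 was the only one above 5 FPKM. The steps of the FPKM values imply 17513135 to 18528812 fragments per library, at which the lowest library of a member held a median of 196 fragments (lowest 30.001). The median counting error was a coefficient of variation of 6.42%, against medians between libraries of 7.62% in the SF3B4 siRNA group and 9.56% in the control group.

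Most numbered zinc finger genes were below 1 FPKM in these cells. Of the 517 listed genes, 141 had a mean below 0.1 FPKM, 33 of them listed at 0 in all 6 libraries, and 267 had a mean of at least 0.1 but below 1 FPKM. The share that met the level rule was 13.5% in the chromosome 19 clusters (32 of 237) and 28.6% on other chromosomes (76 of 266). The median listed gene had 0.206 FPKM in the clusters and 0.304 FPKM on other chromosomes. A KRAB A box was found in 333 of the listed genes, of which 35 were members, against 77 members among 180 listed genes without one. Member genes with a KRAB A box had a median level of 1.66 FPKM and those without had 3.77 FPKM, beside 2.77 FPKM for all members and 4.83 FPKM for all 9685 tested genes. In the chromosome 19 clusters, 207 of the 237 listed genes held a KRAB A box and 14 of the 32 members did.

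**Figure D1:**
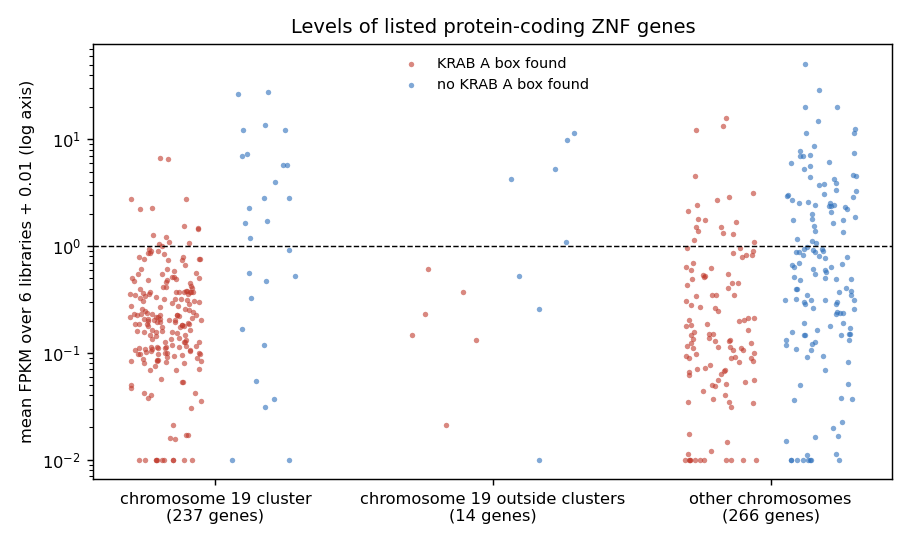
Mean FPKM over the 6 libraries (vertical axis, log scale, 0.01 added) of each listed protein-coding ZNF gene with an annotated protein, by location, with genes holding a KRAB A box in red and others in blue; the dashed line marks 1 FPKM. Most genes lie below the line in all 3 locations, with medians of 0.206 FPKM in chromosome 19 clusters and 0.304 FPKM on other chromosomes.

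Within the members, levels ran over a wide range. ZNF622, a factor in late maturation of the large ribosomal subunit, had the highest mean over all libraries, 51.1 FPKM. It was followed by ZNF467, which steers the choice between bone and fat cell fate in mouse, by ZNF787 and by ZNF428. At the lower edge, ZNF367 and ZNF543 were just inside the rule, where the value that had to reach 1, that of the library ranked 3, was 1.01 and 1.03 FPKM. ZNF16 and ZNF500 were just outside it, with 0.962 and 0.932 FPKM. Of the 113 members, 95 reached 1 FPKM in all 6 libraries. Another 4 passed through 1 group alone, ZNF133 through the SF3B4 siRNA libraries and ZNF185, ZNF367 and ZNF488 through the control libraries, and these had to differ between the groups. Each count of calls given for members includes them unless they are set aside.

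After SF3B4 siRNA, 18 members rose and 17 fell at an adjusted p under 0.05 (limma, Benjamini-Hochberg over all 9685 tested genes), together 31.0% of the 113, or 17 and 14 of 109 without the 4 that passed through 1 group alone. Of all tested genes, 34.1% passed the same test, 16.0% higher and 18.1% lower, so the share of members called was near the background. The median log2 fold change was -0.046 for the members and -0.0035 for all tested genes. The groups did not overlap in 53 members (46.9%), against 49.5% of all tested genes, and this held for all 35 members called. A called change of 1 or more on the log2 scale, in either direction, was seen in 4.05% of tested genes. Among the members it was seen in ZNF512B, which rose, and in ZNF185, ZNF385A, ZNF71 and ZNF488, which fell. The number of rises was lower when an SF3B4 siRNA library was left out. Without SF3B4 siRNA replicate 1, 2 or 3 it was 9, 11 and 11 in that order, beside 18 with all 6 libraries. The share of all tested genes called in either direction was lower in these fits too, at 25.7%, 25.3% and 26.6%, beside 34.1%. Leaving out each of the 6 libraries in turn, control libraries included, gave 9 to 18 rises. Without control replicate 1, 35 members were called, as many as with all 6 libraries.

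**Figure D2:**
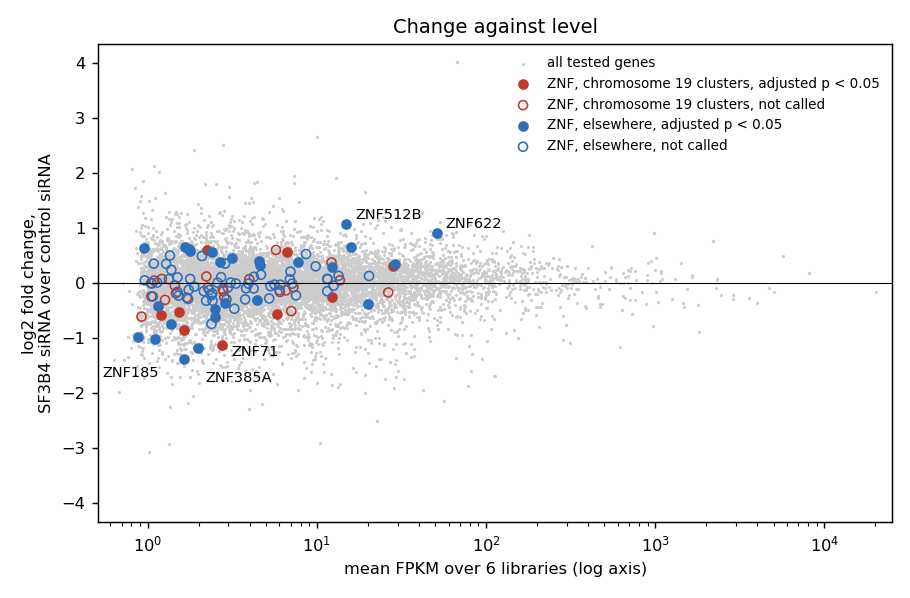
Log2 fold change, SF3B4 siRNA over control siRNA (vertical axis, log2(FPKM + 0.1) scale), against mean FPKM over 6 libraries (horizontal log axis) for all 9685 tested genes in grey, members in chromosome 19 clusters in red and other members in blue, filled where the adjusted p was under 0.05. The 35 filled points, 18 above 0 and 17 below, lie within the cloud of tested genes.

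Members changed in both directions in the chromosome 19 clusters and elsewhere. In the clusters, 3 members rose and 6 fell of 32 (28.1%), with a median log2 fold change of -0.14. Elsewhere 15 rose and 11 fell of 81 (32.1%), with a median of -0.0091, which turned positive on rescaling to TPM (0.0099) or quantile normalization (0.038) and without SF3B4 siRNA replicate 1 (0.018). The median of all tested genes turned positive in the same settings, from -0.0035 to 0.015, 0.028 and 0.0065 in that order. The groups did not overlap in 12 of the 32 cluster members (37.5%) and in 41 of the 81 others (50.6%). Of the 5 members on chromosome 19 outside the clusters, none passed the limma test, nor did any at an unadjusted p under 0.05 (0 higher, 0 lower). The difference between locations was not tested. Without SF3B4 siRNA replicate 1, SF3B4 siRNA replicate 3 or control replicate 2, 1 cluster member rose, and without SF3B4 siRNA replicate 1 or 2 or control replicate 3, 8, 9 and 9 members elsewhere rose. These fits called 25.3% to 27.8% of all tested genes, beside 34.1% with all 6 libraries. The cluster median moved to -0.046 when the 11 cluster members with over 10% of exonic length shared with another gene were left out, 21 then remaining.

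The members' summed level was higher after SF3B4 siRNA. The sum was 641, 644 and 631 FPKM in the SF3B4 siRNA libraries, against 580, 606 and 588 FPKM in the control libraries, and the groups did not overlap. The 32 cluster members summed to 168, 180 and 171 FPKM in the SF3B4 siRNA libraries and to 168, 182 and 181 FPKM in the control libraries, so these sums overlapped. Leaving out ZNF622 and ZNF512B, chosen after their values were seen, the members' sum was 555, 555 and 545 FPKM in the SF3B4 siRNA libraries and 532, 562 and 545 FPKM in the control libraries, which overlapped. The number of listed ZNF genes at 1 FPKM or more was 107, 108 and 109 in the SF3B4 siRNA libraries, against 122, 114 and 113 in the control libraries. A sum in bulk RNA cannot tell fewer cells expressing a gene apart from less RNA per cell.

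The rises were led by ZNF512B and ZNF622, neither of which has a KRAB A box. ZNF512B (GRCh38, chr20:63956702-63969865, - strand), which binds the NuRD chromatin remodelling complex, has 4 fingers by the pattern used here. It had 20.5, 19.7 and 20.2 FPKM in the SF3B4 siRNA libraries, against 9.17, 10.5 and 8.99 FPKM in the control libraries. All 3 SF3B4 siRNA libraries lay far above all control libraries, and the log2 fold change was 1.07 ± 0.081 (SE, adjusted p = 1.6e-04). ZNF622 (GRCh38, chr5:16451519-16465792, - strand) had 65.7, 69.3 and 65.1 FPKM in the SF3B4 siRNA libraries, against 38.7, 33.8 and 34.0 FPKM in the control libraries, again with a wide gap between groups and a log2 fold change of 0.91 ± 0.074 (SE, adjusted p = 2.1e-04). Both calls held in all 14 alternative settings tried.

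Of the next 6 rises, 3 were KRAB genes. ZNF282, a KRAB protein that binds a repressive element of a human retrovirus, had 18.9, 19.9 and 18.6 FPKM in the SF3B4 siRNA libraries, against 13.6, 8.79 and 15.1 FPKM in the control libraries. No control library reached the SF3B4 siRNA range, and control replicate 2 lay well below the other control libraries. The fold change of ZNF282, 0.65 ± 0.19 (SE, adjusted p = 0.037) on the log2 scale, lost its call when any 1 SF3B4 siRNA library was left out and with no filter on low values, with adjusted p up to 0.106. ZNF133, a KRAB repressor with 15 fingers, had 1.07, 1.23 and 1.25 FPKM in the SF3B4 siRNA libraries, against 0.769, 0.649 and 0.753 FPKM in the control libraries. It entered through the SF3B4 siRNA libraries alone, so its being higher there follows in part from the rule (log2 fold change 0.64 ± 0.14, adjusted p = 0.011). ZNF688, also a KRAB gene, had 1.77, 1.97 and 2.41 FPKM in the SF3B4 siRNA libraries, against 1.22, 1.11 and 1.48 FPKM in the control libraries. The groups lay close to each other (log2 fold change 0.65 ± 0.16, adjusted p = 0.017), and the call was lost without SF3B4 siRNA replicate 3 or control replicate 2 and with no filter on low values (adjusted p up to 0.055). ZNF174, a repressor with a SCAN domain through which such proteins pair, had 2.61, 1.95 and 1.96 FPKM in the SF3B4 siRNA libraries, against 1.61, 1.29 and 1.301 FPKM in the control libraries. SF3B4 siRNA replicate 1 was the highest library (log2 fold change 0.59 ± 0.15, adjusted p = 0.022), and the call was lost without SF3B4 siRNA replicate 1 or control replicates 2 or 3 and with no filter on low values (adjusted p up to 0.070). ZNF512, a relative of ZNF512B, had 1.90, 2.19 and 2.33 FPKM in the SF3B4 siRNA libraries, against 1.51, 1.24 and 1.33 FPKM in the control libraries. It rose without overlap between groups (log2 fold change 0.62 ± 0.13, adjusted p = 0.0091), but its exons share 31.6% of their length with another annotated gene, so its value is uncertain. The last of these rises, ZNF134, lies on chromosome 19 and is given there.

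**Figure D3:**
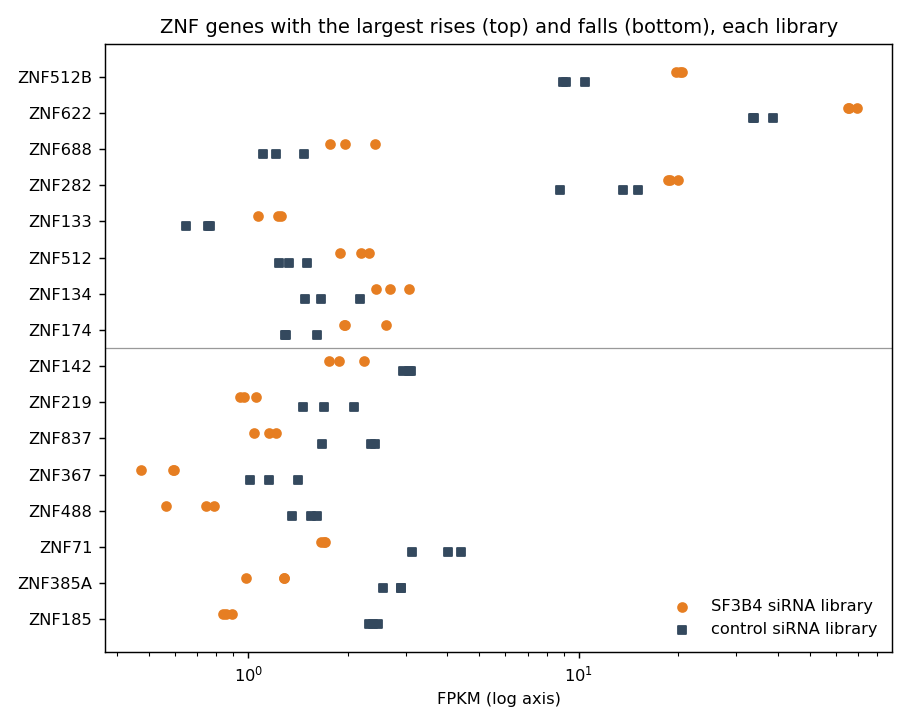
FPKM (horizontal log axis) of each library for the 8 largest rises (upper rows) and 8 largest falls (lower rows) among the members, with SF3B4 siRNA libraries as orange circles and control siRNA libraries as blue squares. In each row the groups do not overlap, and the widest gaps on the log axis are those of ZNF185, ZNF385A and ZNF512B.

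The largest fall was that of ZNF185 (GRCh38, chrX:152914442-152973480, + strand), a LIM-domain protein of the actin cytoskeleton in which no C2H2 finger was found. ZNF185 had 0.842, 0.896 and 0.858 FPKM in the SF3B4 siRNA libraries, against 2.33, 2.39 and 2.47 FPKM in the control libraries. The libraries within each group lay close together, and the log2 fold change was -1.37 ± 0.11 (SE, adjusted p = 1.9e-04). ZNF385A (GRCh38, chr12:54369133-54391298, - strand), an RNA-binding zinc finger protein, had 1.28, 0.984 and 1.29 FPKM in the SF3B4 siRNA libraries, against 2.90, 2.55 and 2.90 FPKM in the control libraries. Its groups were well apart, with a log2 fold change of -1.17 ± 0.14 (SE, adjusted p = 8.4e-04). ZNF488, which takes part in oligodendrocyte differentiation in mouse, had 0.790, 0.563 and 0.747 FPKM in the SF3B4 siRNA libraries, against 1.62, 1.55 and 1.35 FPKM in the control libraries. The highest SF3B4 siRNA library was below the lowest control library by a wide margin (log2 fold change -1.02 ± 0.16, adjusted p = 0.0029). ZNF367 had 0.595, 0.591 and 0.474 FPKM in the SF3B4 siRNA libraries, against 1.41, 1.16 and 1.01 FPKM in the control libraries. It was at the lower edge of the rule, with all SF3B4 siRNA libraries below 1 FPKM (log2 fold change -0.98 ± 0.17, adjusted p = 0.0045). Since ZNF185, ZNF488 and ZNF367 entered through the control libraries alone, their being lower in SF3B4 siRNA libraries follows in part from the rule.

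ZNF219, a partner of SOX9 in mouse cartilage development, had 1.06, 0.971 and 0.945 FPKM in the SF3B4 siRNA libraries, against 1.46, 1.69 and 2.09 FPKM in the control libraries. The control libraries were the more spread (log2 fold change -0.75 ± 0.15, adjusted p = 0.0082), and 19.1% of its exonic length overlaps TMEM253. ZNF142, a gene of neurodevelopmental disorders whose protein held 31 fingers, had 1.88, 1.76 and 2.25 FPKM in the SF3B4 siRNA libraries, against 2.95, 3.11 and 3.06 FPKM in the control libraries. No SF3B4 siRNA library reached the lowest control library, and the log2 fold change was -0.61 ± 0.12 (SE, adjusted p = 0.0062). The calls of these 6 falls held in every alternative that tested the gene.

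Among the chromosome 19 clusters, the runs nearest the end of the long arm held most members. The run from ZNF628 to ZNF835 (GRCh38, chr19:55476332-56671783) had 9 members of 16 listed genes, and the run from ZNF264 to ZNF446 (chr19:57191500-58481230) had 15 of 44. The other 8 clusters together had 8 members, and those from ZNF554 to ZNF77 and from ZNF302 to ZNF792 had none. The run of 37 genes from ZNF101 to ZNF254, with 35 KRAB genes, had 1 member and a median level of 0.0889 FPKM. Its neighbour in order of size, the run of 40 from ZNF175 to ZNF331, also had 1 member.

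ZNF71 (GRCh38, chr19:56595264-56626481, + strand), a KRAB gene with 13 fingers, was the cluster member with the largest fall. It had 1.66, 1.71 and 1.69 FPKM in the SF3B4 siRNA libraries, against 3.13, 4.02 and 4.39 FPKM in the control libraries. The SF3B4 siRNA libraries lay within a narrow range far below all controls, with a log2 fold change of -1.13 ± 0.14 (SE, adjusted p = 9.6e-04). ZNF837 (GRCh38, chr19:58367618-58381060, - strand), without a KRAB A box, had 1.04, 1.16 and 1.21 FPKM in the SF3B4 siRNA libraries, against 1.67, 2.35 and 2.42 FPKM in the control libraries. Control replicate 1 was nearest to the SF3B4 siRNA range (log2 fold change -0.84 ± 0.16, adjusted p = 0.0063). ZNF134, of the same run as ZNF837, went the other way, with 2.68, 2.44 and 3.06 FPKM in the SF3B4 siRNA libraries, against 2.18, 1.49 and 1.66 FPKM in the control libraries. The highest control library was just under the lowest SF3B4 siRNA library (log2 fold change 0.60 ± 0.16, adjusted p = 0.023). The ZNF134 call was lost when SF3B4 siRNA replicate 1 or 3 or control replicate 2 or 3 was left out, and with no filter on low values (adjusted p up to 0.075). In the same run, ZNF416 averaged 7.97 ± 0.753 FPKM in SF3B4 siRNA libraries and 5.39 ± 0.632 FPKM in control libraries (SD, n = 3 each). That rise had a log2 fold change of 0.56 ± 0.11 (SE, adjusted p = 0.0083), so genes of this run changed in both directions.

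ZNF146, whose protein is made almost wholly of fingers, had 1.00, 0.903 and 0.883 FPKM in the SF3B4 siRNA libraries, against 1.66, 1.36 and 1.34 FPKM in the control libraries. It was lower in each SF3B4 siRNA library (log2 fold change -0.59 ± 0.14, adjusted p = 0.014), and 10.8% of its exonic length overlaps ZNF565. ZNF414 had 4.37, 5.01 and 4.59 FPKM in the SF3B4 siRNA libraries, against 6.33, 6.74 and 7.64 FPKM in the control libraries. All SF3B4 siRNA libraries were below all controls, with a log2 fold change of -0.56 ± 0.10 (SE, adjusted p = 0.0055). ZNF738, whose annotated protein holds a KRAB A box and no finger, had 1.48, 1.19 and 1.07 FPKM in the SF3B4 siRNA libraries, against 1.90, 1.81 and 1.78 FPKM in the control libraries. SF3B4 siRNA replicate 1 was nearest to the controls (log2 fold change -0.53 ± 0.14, adjusted p = 0.022). The ZNF738 call was lost on leaving out any library other than SF3B4 siRNA replicate 1, and with no filter on low values (adjusted p up to 0.068). ZNF865 averaged 11.1 ± 0.606 FPKM in SF3B4 siRNA libraries and 13.3 ± 0.813 FPKM in control libraries (SD, n = 3 each). With it (log2 fold change -0.26 ± 0.081, adjusted p = 0.041), the 6 cluster members that fell are complete. The ZNF865 call was near the threshold and was not examined on its own in the alternative settings.

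ZNF787, one of the most highly expressed cluster members, had 31.0, 30.1 and 31.7 FPKM in the SF3B4 siRNA libraries, against 22.2, 25.5 and 27.6 FPKM in the control libraries. It rose (log2 fold change 0.31 ± 0.089, adjusted p = 0.032), but the call was lost without any 1 SF3B4 siRNA library, without control replicate 2, with no filter on low values and without the intensity trend and robust option (adjusted p up to 0.092). ZNF428, ZNF653 and ZNF880 were not called. ZNF428 had 21.0, 27.0 and 26.7 FPKM in the SF3B4 siRNA libraries, against 24.8, 29.9 and 29.01 FPKM in the control libraries, and the groups overlapped (log2 fold change -0.17 ± 0.12, adjusted p = 0.31). ZNF653 had 1.91, 1.296 and 1.41 FPKM in the SF3B4 siRNA libraries, against 1.76, 1.59 and 2.24 FPKM in the control libraries, with overlap (log2 fold change -0.27 ± 0.18, adjusted p = 0.3). ZNF880, a KRAB gene, had 2.19, 2.86 and 2.75 FPKM in the SF3B4 siRNA libraries, against 4.28, 2.60 and 1.96 FPKM in the control libraries. Control replicate 1 was the highest of the 6, and the log2 fold change of -0.11 ± 0.27 (SE, adjusted p = 0.79) turned to 0.19 without it and to 0.0041 without SF3B4 siRNA replicate 1. Reads of near-identical cluster paralogs may be shared between genes, and how the authors' counting split them is not known here. A case of exons shared between cluster members is the readthrough ZNF8-ERVK3-1. Other genes overlap 65.4% of its exonic length, and ZNF8 alone overlaps 44.7%. ZNF8-ERVK3-1 had 5.80, 5.11 and 5.48 FPKM in the SF3B4 siRNA libraries, against 8.12, 3.33 and 8.40 FPKM in the control libraries. ZNF8 itself had 1.03, 1.19 and 1.15 FPKM in the SF3B4 siRNA libraries, against 1.41, 1.31 and 1.51 FPKM in the control libraries, and neither passed the test (adjusted p = 0.76 for ZNF8-ERVK3-1 and 0.099 for ZNF8).

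**Figure D4:**
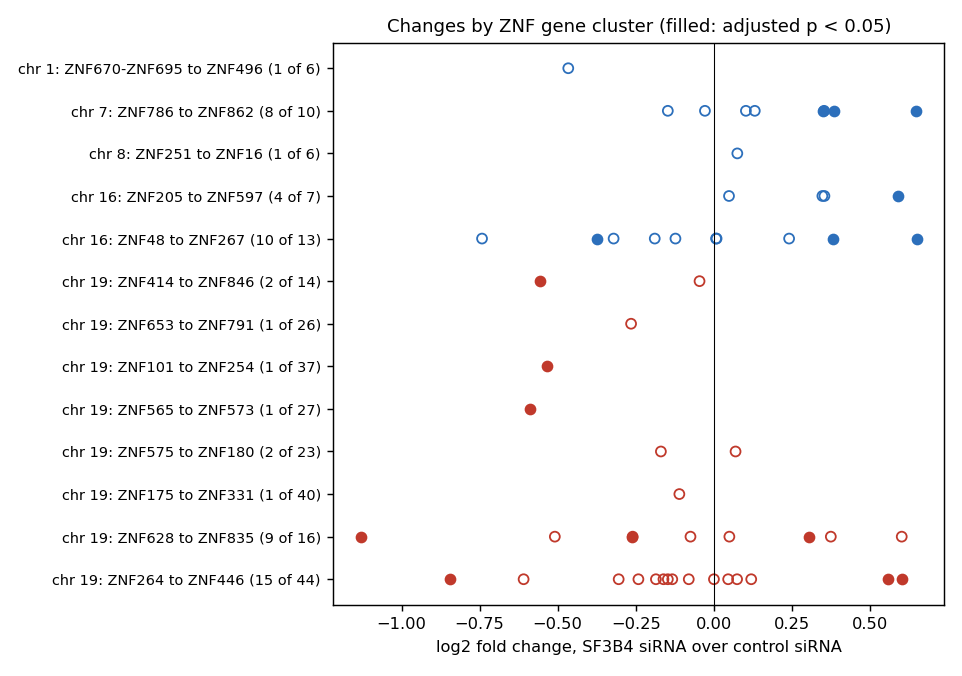
Log2 fold change, SF3B4 siRNA over control siRNA (horizontal axis), of each member in a ZNF gene cluster, 1 row per cluster with members of listed genes in brackets; chromosome 19 clusters are red, others blue, filled where the adjusted p was under 0.05. The chromosome 19 runs with most members have points on both sides of 0, and the chromosome 7 run has 3 filled points, all above 0.

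Outside chromosome 19, the run on chromosome 7 from ZNF786 to ZNF862 (chr7:149069643-149867479) had 8 members of 10 listed genes, the largest share of any cluster. Of these, 3 rose (ZNF282, ZNF467 and ZNF783) and none fell, also at an unadjusted p under 0.05 (limma, 4 higher and 0 lower), beside 16.0% higher and 18.1% lower over all tested genes. The call of ZNF282 was lost without any 1 SF3B4 siRNA library. A negative log2 fold change was seen in 2 of the 8. ZNF467 had 34.3, 31.6 and 31.3 FPKM in the SF3B4 siRNA libraries, against 22.8, 26.1 and 27.5 FPKM in the control libraries. Its rise (log2 fold change 0.35 ± 0.087, adjusted p = 0.018) lost its call without SF3B4 siRNA replicate 1 (adjusted p = 0.063) and with no filter on low values (0.054). On chromosome 16, the run from ZNF48 to ZNF267 had 10 members of 13, of which 2 rose and 1 fell, and the run from ZNF205 to ZNF597 had 4 of 7, of which 1, ZNF174, rose. The clusters on chromosomes 3, 4, 5, 12 and X, and the run from ZNF722 to ZNF92 on chromosome 7, had no member.

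By protein type, members with a KRAB A box counted 8 higher and 2 lower of 35 (28.6% called), and members without one 10 higher and 15 lower of 77 (32.5%). A KRAB domain that scored below the limit counts here as absent, so these counts hold for the boxes found only. Members outside the chromosome 19 clusters in which a box was found counted 7 higher and 0 lower of 21 by limma (9 and 0 at an unadjusted p under 0.05). Without ZNF133 the count was 6 and 0 of 20, beside 16.0% higher and 18.1% lower over all tested genes. Those called higher include ZNF282 and ZNF688, whose calls were lost in 4 and 3 of 14 alternatives in that order. They also include ZNF337 and ZNF783, with 73.8% and 29.5% of exonic length overlapping another gene. The 21 had a median log2 fold change of 0.24 and 17 of them were above 0, beside 49.6% of all tested genes above 0 and 50.4% below. The KRAB members in the clusters counted 1 higher and 2 lower of 14, with a median of -0.096. Those without a KRAB A box counted 2 higher and 4 lower of 17 in the clusters, and 8 higher and 11 lower of 60 elsewhere. The difference between these types was not tested. By finger number, 7 rose and 6 fell of 33 members with 1 to 4 fingers, 3 and 3 of 34 with 5 to 9, and 8 and 6 of 39 with 10 or more, while 2 fell of 6 in which no finger was found.

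Counts also varied with level. Of the 17 members with a mean of at least 10 FPKM, 6 rose and 2 fell, beside 685 and 588 of 3011 tested genes. Of the 19 with a mean of 5 to 10 FPKM, 2 rose and 1 fell, beside 298 and 319 of 1737 tested genes. Between 2 and 5 FPKM, 6 rose and 5 fell of 39 members, beside 343 and 486 of 2646 tested genes. Of the 38 members with a mean under 2 FPKM, 4 rose and 9 fell, beside 220 and 359 of 2291 tested genes. The lowest band holds the members that passed through 1 group alone.

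A chosen list of 21 genes held the KRAB corepressors TRIM28 and SETDB1 with other genes of chromatin silencing and DNA methylation. Of these 21 genes, 14 were tested, of which 2 rose and 3 fell (35.7%), near the 34.1% called over all tested genes. TRIM28, the scaffold bound by the KRAB domain, had 91.2, 86.2 and 95.2 FPKM in the SF3B4 siRNA libraries, against 76.6, 93.9 and 106 FPKM in the control libraries. The SF3B4 siRNA values were inside the control range, and the log2 fold change of -0.01 ± 0.12 (SE, adjusted p = 0.96) changed sign in 4 of 14 alternatives, staying far from the threshold. SETDB1 had 4.35, 4.27 and 4.84 FPKM in the SF3B4 siRNA libraries, against 3.89, 4.66 and 4.39 FPKM in the control libraries. These groups overlapped as well (log2 fold change 0.057 ± 0.10, adjusted p = 0.71). HDAC1, a histone deacetylase, had 55.1, 59.5 and 58.1 FPKM in the SF3B4 siRNA libraries, against 41.6, 37.4 and 38.9 FPKM in the control libraries. It rose (log2 fold change 0.55 ± 0.067, adjusted p = 9.7e-04) without overlap. DNMT1, the maintenance DNA methyltransferase, had 6.41, 5.68 and 6.28 FPKM in the SF3B4 siRNA libraries, against 10.3, 9.53 and 9.20 FPKM in the control libraries. Its partner UHRF1 had 1.94, 1.53 and 2.02 FPKM in the SF3B4 siRNA libraries, against 3.42, 3.30 and 2.65 FPKM in the control libraries. Both fell, DNMT1 with a log2 fold change of -0.65 ± 0.088 (SE, adjusted p = 0.0015) and UHRF1 with one of -0.74 ± 0.15 (SE, adjusted p = 0.0077). MORC2, a silencing ATPase, fell with a log2 fold change of -0.28 ± 0.087 (SE, adjusted p = 0.043). That call was near the threshold and was not examined on its own in the alternative settings. EHMT1, a histone methyltransferase, rose with a log2 fold change of 0.45 ± 0.10 (SE, adjusted p = 0.013), a call lost without SF3B4 siRNA replicate 2 (adjusted p = 0.053). ZNF274, a KRAB protein known to bind ZNF genes of chromosome 19 and to bring SETDB1 there, is given for that role and was chosen after its values were seen. It had 1.41, 1.36 and 1.33 FPKM in the SF3B4 siRNA libraries, against 1.58, 1.61 and 1.52 FPKM in the control libraries. All 3 SF3B4 siRNA libraries were lower, but the gene did not pass the test (log2 fold change -0.19 ± 0.11, adjusted p = 0.22).

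Members that act on RNA and ribosomes counted 1 higher, ZNF622, and 3 lower of 8 tested. Over all tested genes 16.0% were called higher and 18.1% lower, which is also the background of the other lists given here, and lists this small are described by their members only. The falls were ZNF385A, ZNF598, an E3 ubiquitin ligase acting at collided ribosomes, and ZNF207, a BUB3-binding protein of kinetochores that also takes part in splicing. ZNF207 had 1.83, 2.11 and 2.31 FPKM in the SF3B4 siRNA libraries, against 3.00, 2.96 and 2.82 FPKM in the control libraries. The fall (log2 fold change -0.48 ± 0.11, adjusted p = 0.016) was not called without SF3B4 siRNA replicate 1 (adjusted p = 0.052). ZNF598 averaged 2.50 ± 0.246 FPKM in SF3B4 siRNA libraries and 3.21 ± 0.0531 FPKM in control libraries (SD, n = 3 each), with a log2 fold change of -0.36 ± 0.10 (SE, adjusted p = 0.034) and 10.7% of its exonic length shared with another gene. A chosen list of DNA-binding genes without KRAB, which does not cover all such members, had 15 tested genes. Of these 0 rose and 3 fell: ZNF219, ZNF367 and ZNF687, the last known from Paget disease of bone. All 77 members without a KRAB A box counted 10 higher and 15 lower. ZNF687 had 3.94, 4.11 and 3.84 FPKM in the SF3B4 siRNA libraries, against 4.50, 4.96 and 5.28 FPKM in the control libraries. Its change was small (log2 fold change -0.30 ± 0.095, adjusted p = 0.043), 11.0% of its exonic length overlaps other genes, and the call was lost in 9 of 14 alternatives, among them leaving out any library other than control replicate 1 (adjusted p up to 0.133). Of 8 SCAN members tested, 1 rose (ZNF174), and of 3 KRAB repressors of retroelements and imprints, 1 rose (ZNF133). Other zinc finger families counted 4 higher and 1 lower of 19 tested ZBTB genes, 1 and 1 of 5 ZSCAN genes and 0 and 2 of 7 ZFP genes.

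Calls not yet described follow, and these were not examined on their own in the alternative settings. ZNF821 averaged 2.89 ± 0.111 FPKM in SF3B4 siRNA libraries and 1.93 ± 0.0349 FPKM in control libraries (SD, n = 3 each); the log2 difference was 0.56 ± 0.095 (SE, adjusted p = 0.0039), with 37.4% of its exonic length overlapping other genes. ZNF337 averaged 3.66 ± 0.357 FPKM in SF3B4 siRNA libraries and 2.65 ± 0.390 FPKM in control libraries (SD, n = 3 each); the log2 difference was 0.46 ± 0.14 (SE, adjusted p = 0.036), but 73.8% of its exonic length overlaps its antisense gene, and without a known strand setting the reads cannot be told apart. ZNF76, a relative of the activator ZNF143, averaged 5.10 ± 0.0922 FPKM in SF3B4 siRNA libraries and 4.05 ± 0.0301 FPKM in control libraries (SD, n = 3 each); the log2 difference was 0.33 ± 0.08 (SE, adjusted p = 0.017). ZNF316, ZNF436, ZNF629 and ZNF783 also rose, with log2 fold changes of 0.29, 0.39, 0.38 and 0.38 in that order, and 29.5% of the exonic length of ZNF783 overlaps another gene. ZNF70 and ZNF768 also fell, with log2 fold changes of -0.42 and -0.37. The call of ZNF70 was near the threshold (limma, adjusted p = 0.048), and that of ZNF768 was not (adjusted p = 0.0037). Among members not called, ZNF672, chosen after its values were seen, had 9.72, 8.42 and 9.34 FPKM in the SF3B4 siRNA libraries, against 11.6, 10.6 and 2.01 FPKM in the control libraries. Control replicate 3 stood far below the other control libraries of ZNF672, and its log2 fold change was 0.53 ± 0.69 (SE, adjusted p = 0.6).

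Some members carry, in an annotated 3′ UTR, the 7-mers GCCTTCA or CCTTCAA, which overlap by 6 bases and were taken up because carriers of them fell more often in these data, so their direction over all genes is not independent evidence. The sense strand of every annotated 3′ UTR was searched. A 3′ UTR in an annotated transcript can be coding sequence in another, and sites of that kind were not set aside. Of 111 members with a 3′ UTR, 20 held a site (18.02%), against 1767 of 8384 tested genes (21.1%). Of the 20 carriers, 3 rose and 3 fell, with a median log2 fold change of -0.17, beside 172 and 572 of the 1767 carriers among all tested genes. Of the 14 members with GCCTTCA, 1 rose and 3 fell, with a median of -0.22. The sites of the 6 called carriers are printed to show their setting, 5′ to 3′ on the transcript strand with the 7-mer in capitals, from GENCODE 29 (GRCh38). For ZNF367, whose sites overlap, the GCCTTCA site is given. The first 3 genes fell and the last 3 rose. Of the falls, that of ZNF70 was called near the threshold (limma, adjusted p = 0.048). The call of ZNF207 was lost without SF3B4 siRNA replicate 1.

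ZNF367, chr9:96386284-96386310 (-): aacatttaagGCCTTCAaaagtaaggg
ZNF207, chr17:32370111-32370137 (+): tgtaaagtttGCCTTCAcagcatttca
ZNF70, chr22:23743537-23743563 (-): aagacagctgGCCTTCAgtttctcctt
ZNF76, chr6:35294762-35294788 (+): gcctcttctgGCCTTCAggataactcc
ZNF629, chr16:30779901-30779927 (-): cctggagaccCCTTCAAaaggagagga
ZNF512B, chr20:63959109-63959135 (-): agcttgatgcCCTTCAAcacagctgcc

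All 3 carriers that fell hold GCCTTCA. Of the 3 that rose, ZNF76 holds GCCTTCA and ZNF629 and ZNF512B hold CCTTCAA. A match is a description of the letters and not evidence that the site acts.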

How the data were processed

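The deposited values are FPKM, 1 for each gene in each library. Per the submitters' processing notes, the tools were HISAT2 2.0.4 and StringTie 1.3.0 and the build was GRCh38; their roles are not stated. The annotation, strand setting and treatment of multi-mapping reads are not stated either. Since FPKM is not a count, count models were not used. Groups and replicate numbers came from the titles.

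Symbols were matched for 49659 identifiers, and GENCODE 29 (GRCh38), which may differ from the annotation the authors used, gave positions, exon overlaps, proteins and 3′ UTRs for 50111. Fingers were counted by the spacing of cysteines and histidines in the longest complete protein. A KRAB A box was called by a position-specific score of at least 10 bits, and the score can miss a KRAB domain that differs from the pattern. The 9685 genes that reached 1 FPKM in 3 or more libraries were tested with limma 3.58.1 (R 4.3.3) on log2(FPKM + 0.1), with the intensity trend, the robust option, a two-sided test and Benjamini-Hochberg adjustment over all of them and a threshold of 0.05. Fold changes on this scale understate changes of low genes. The test was tried on simulated data before use. The simulation had far fewer changed genes than were called here and the same noise setting for all genes. It therefore cannot vouch for the calls in these data.

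The members and lists were chosen with earlier results of these data known. Genes named are, among members past the threshold whose groups do not overlap, the 8 that rose most and the 8 that fell most, the 4 highest levels, the leading member of each chromosome 19 cluster, up to 3 members of each role list, the genes next to the level limit, and corepressors; the other called members are listed with them. Alternatives were other pseudocounts, filters, scalings, variance settings and cluster limits, a replicate block, leaving out each library, and leaving out overlapping members or carriers of the 7-mers. Counting errors cover counting only.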

Additional observations from a re-analysis of the deposited data

How the results depend on the processing

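In the limma fits, 129 of 162 recomputed counts and medians stayed within 1.5 times the value reported, or within the spread between libraries, and 33 moved. Without a filter on low values the members called were 20 against 35, with 8 rises in all, 1 in the chromosome 19 clusters and 7 elsewhere. That fit called 10.9% of the 24450 genes it tested, beside 34.1% of tested genes in the main fit. With FPKM of at least 1 required in all 6 libraries, 10 members fell, 5 of them outside the clusters, and the members' median log2 fold change was -0.0306. Rescaled to TPM, the median was -0.0274 for all members and 0.00987 for those outside the clusters, beside 0.0155 for all tested genes. After quantile normalization it was -0.000406 for all members, -0.0878 in the clusters and 0.0384 elsewhere, beside 0.0281 for all tested genes. In the main fit the median of all tested genes was -0.0035. The cluster median was -0.115 with a pseudocount of 1 and -0.122 with a cluster gap of at most 1000 kb. Leaving out members with over 10% exon overlap gave medians of -0.0113 for all members and -0.046 in the clusters. Leaving out carriers of the 7-mers gave -0.0107 for all members and 0.00902 elsewhere. The cause of these shifts was not tested.

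Leaving out 1 library at a time gave 9 to 18 rises and 13 to 17 falls among the members, 1 to 4 rises and 4 to 6 falls in the clusters, and 8 to 14 rises and 8 to 11 falls elsewhere. The same fits called 25.3% to 32.0% of all tested genes, beside 34.1% with all 6 libraries. The medians ran from -0.0656 to -0.0309 for all members, from -0.194 to -0.117 in the clusters and from -0.0365 to 0.0177 elsewhere. For all tested genes the median ran from -0.0142 to 0.00929. TRIM28, which was not called, changed sign on rescaling to TPM (0.00902) and ran from -0.138 to 0.0990 when 1 library was left out. ZNF880, also not called, ran from -0.356 to 0.187, and SETDB1 from -0.0136 to 0.114.

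Same-numbered libraries did not deviate together (correlations of deviations -0.08, 0.0243 and -0.118, and 0 of 3 numbers matched best with their own), so the numbers were not taken as pairs. With the replicate number as a block, 26 members were called, 13 higher and 13 lower, beside 29.2% of all tested genes in that fit. At this depth, counting alone gave a low member a coefficient of variation of up to 14.5% in a library. The test also depends on the spread between libraries, so larger differences could go uncalled. For example, ZNF346 was at 147% of its control mean and was not called by limma (adjusted p = 0.064).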
